A study of Mus musculus with 8 samples.

Results

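Klf2, Klf4, Klf6, Klf9 and Klf10 encode Krüppel-like factors (KLFs), transcription factors with zinc fingers that bind GC-rich and CACCC sequences. These 5 genes were chosen by name out of the 11447 gene identifiers in the tables, and all 5 were listed in all 8 libraries. The libraries held GFP-positive smooth muscle cells sorted from digested mouse ascending aorta and profiled on the 10x Genomics Chromium system. There were 4 KO libraries (genotype label TGFBetaRiSMC-Apoe, Apoe-deficient mice with a knockout of Tgfbr2, a TGF-beta receptor, specific to smooth muscle) and 4 Apoe libraries (Apoe-/-), so every mouse lacked Apoe. Each genotype had 1 library per diet: the diet labelled ND, and 1 month (1M), 2 months (2M) or 4 months (4M) of a high fat diet, HFD. The labels do not name the promoter that drove the knockout or the GFP, the sex or age of the mice, or how many mice a library held.

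KLF4 is known in vascular smooth muscle as a repressor of contractile genes during phenotypic switching, and it is one of the factors that reprogram cells to pluripotency. KLF2 is best known from endothelium, where it and KLF4 are induced by laminar flow through the kinase ERK5 and MEF2 factors. KLF6 is an early-response factor of injured vessels. KLF9 is a target of glucocorticoid and thyroid hormone receptors, and KLF10, also called TIEG1, was found as an early gene induced by TGF-beta. KLF9 and KLF10 mostly repress transcription. Several KLF transcripts are also immediate early transcripts, which are known to rise while tissue is digested to single cells.

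On GRCm38 (GENCODE vM21) Klf4 lies on chromosome 4, 55527143 to 55532466, minus strand, and Klf2 on chromosome 8, 72319033 to 72321656, plus strand. Klf6 lies on chromosome 13, 5861482 to 5870394, plus strand, Klf9 on chromosome 19, 23141226 to 23168134, plus strand, and Klf10 on chromosome 15, 38291463 to 38300706, minus strand. No other annotated gene overlaps them except Mir1192, which lies inside Klf9. RefSeq start sites of build GRCm38.p6 were matched for 4 of the 5 genes, all but Klf10. The 250 bases before the start are shown for the 3 genes in which a match to a MEF2, cyclic AMP response or AP-1 motif was found, since MEF2 acts downstream of ERK5, and AP-1 and cyclic AMP response motifs are known from promoters of immediate early genes. Capitals mark the MEF2 match in Klf2, TGACG (or CGTCA, the same letters on the other strand) in all 3, and the AP-1 match TGANTCA in Klf9.
Klf2, chr8:72318812-72319061, plus strand: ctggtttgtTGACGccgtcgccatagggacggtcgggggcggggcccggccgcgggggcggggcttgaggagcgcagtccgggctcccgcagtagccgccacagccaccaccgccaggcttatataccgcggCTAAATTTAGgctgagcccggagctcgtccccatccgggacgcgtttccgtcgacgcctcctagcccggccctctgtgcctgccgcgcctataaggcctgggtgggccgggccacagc
Klf4, chr4:55532476-55532725, minus strand: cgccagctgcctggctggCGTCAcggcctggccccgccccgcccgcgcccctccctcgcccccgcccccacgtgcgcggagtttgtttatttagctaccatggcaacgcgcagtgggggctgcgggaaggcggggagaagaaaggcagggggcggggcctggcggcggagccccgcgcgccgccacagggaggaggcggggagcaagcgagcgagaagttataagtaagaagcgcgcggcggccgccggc
Klf9, chr19:23140976-23141225, plus strand: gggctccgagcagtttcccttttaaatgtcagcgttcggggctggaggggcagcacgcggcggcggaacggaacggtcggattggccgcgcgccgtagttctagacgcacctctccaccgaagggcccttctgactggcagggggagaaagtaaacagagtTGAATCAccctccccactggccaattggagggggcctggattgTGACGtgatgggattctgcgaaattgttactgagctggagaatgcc
Both strands were searched, and the marked matches do not overlap each other. The MEF2 match of Klf2 begins 118 bases before the start, and 2.92% of 32851 promoter windows of this length hold one. A TGACG begins 241 bases before the start of Klf2, 232 before that of Klf4 and 46 before that of Klf9, and 17.8% of all windows hold it. The AP-1 match of Klf9 begins 89 bases before the start, and 6.75% of windows hold TGANTCA. The Klf6 window held 1 GGGCGG, a motif in 32.7% of windows, and no match to the MEF2, TGACG, AP-1 or TATAAA motifs. No CArG box, the SRF element of contractile genes (in 1.47% of windows), was found in the 4 windows. These matches describe letters and say nothing of whether a factor was bound.

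The 8 libraries held 13056 cells, from 1127 to 2659 each, and their median UMIs (unique molecular identifiers) per cell were highest in KO 4M, at 10988, and lowest in Apoe 4M, at 6966. Levels are UMIs per 1000000 UMIs of the library (CPM), and intervals on them are exact Poisson 95% intervals that cover counting error only. Where depth matters, each cell was thinned to 2905 UMIs, the lowest total of any cell, so that no cell was lost. KO 4M stood apart from the other libraries. Its 17 contractile genes summed to 2486 CPM, against 29870 in Apoe 4M, and its 17 cartilage and bone genes to 50520, against 8397 in Apoe 4M. The smooth muscle label therefore did not match the contractile markers of KO 4M. Endothelial and lymphocyte markers were sparse, whereas fibroblast and macrophage genes reached high sums in some libraries. Of 11 endothelial genes 3 were listed in any library (Pecam1, Nos3 and Thbd), and they summed to 11.9 to 68.1 CPM in KO libraries and 78.4 to 144 in Apoe libraries, with Cdh5, Vwf and Kdr unlisted. No lymphocyte gene of 8 was listed. The 6 listed macrophage genes summed to 135 to 2271 CPM in KO libraries and 64.3 to 360.0 in Apoe libraries, of which Lgals3 alone passed the filter of the fits below. Fibroblast genes (7 of 8 listed) summed to 101 to 11950 CPM in KO libraries and 90.3 to 3904 in Apoe libraries, and the 1 listed Schwann gene, S100b, to 239 in KO 4M and 27.5 in Apoe 4M. KO 1M had 39 cells with at least 3 markers of 1 other cell type and KO 4M had 10, and the other libraries had 0. The targeted gene gave no check of the labels, because Tgfbr2 is absent from the tables that hold KO cells. Pairs of libraries shared 0 to 9 cell barcodes.

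Klf2 stood at 199, 253, 299 and 461 CPM in KO ND, 1M, 2M and 4M, against 295, 409, 647.5 and 354 in Apoe ND, 1M, 2M and 4M. In KO the level was higher on each later diet, whereas in Apoe it peaked at 2M and was 0.546 times that peak at 4M (interval 0.526 to 0.568). The KO over Apoe ratio was 0.676 on ND, 0.619 on 1M, 0.462 on 2M and 1.30 on 4M. KO was thus lower on 3 diets and higher on the last, and the 2 genotypes overlapped. In the order of levels only KO 2M and Apoe ND could not be told apart by counting error.

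Klf4 stood at 462, 606, 584 and 763 CPM in KO ND, 1M, 2M and 4M, against 729, 844, 859.6 and 668.5 in Apoe ND, 1M, 2M and 4M. The ratio of KO to Apoe was 0.633 on ND, 0.718 on 1M, 0.68 on 2M and 1.14 on 4M. As for Klf2, KO was lower on 3 diets and higher on 4M, where KO was at its highest level and Apoe at its lowest. Apoe 2M and Apoe 1M, and likewise KO 1M and KO 2M, lay within counting error of each other.

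Klf10 had the lowest counts. Its level was 48.0, 69.7, 52.2 and 84.75 CPM in KO ND, 1M, 2M and 4M, against 88.1, 103, 108 and 70.2 in Apoe ND, 1M, 2M and 4M. The ratio was 0.545, 0.678, 0.485 and 1.21 on the 4 diets in that order, the same order of genotypes as for Klf2 and Klf4. On 4M the ratio at matched depth was 1.06, with an interval from 0.914 to 1.24 that holds 1.

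Klf6 stood at 452, 393, 387 and 229 CPM in KO ND, 1M, 2M and 4M, against 667, 649, 856 and 459 in Apoe ND, 1M, 2M and 4M. The ratio was 0.678, 0.606, 0.453 and 0.5 on the 4 diets in that order. In CPM every KO library was below every Apoe library, although the nearest pair, KO ND and Apoe 4M, overlapped by counting error. At matched depth that pair stood in the other order, at 466 CPM of thinned cells in KO ND and 446 in Apoe 4M, and so it did in the mean log2 value used by the fit below, at 2.13 in KO ND and 1.73 in Apoe 4M. KO 4M held 0.507 times the Klf6 level of KO ND (interval 0.487 to 0.528) and Apoe 4M held 0.688 times that of Apoe ND (0.663 to 0.713).

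Klf9 stood at 208, 249, 294 and 133 CPM in KO ND, 1M, 2M and 4M, against 329, 304, 418 and 361 in Apoe ND, 1M, 2M and 4M. The ratio was 0.633, 0.819, 0.704 and 0.368 on the 4 diets in that order. The nearest pair for Klf9, KO 2M and Apoe 1M, overlapped by counting error and also turned round at matched depth, at 304 CPM of thinned cells in KO 2M and 298 in Apoe 1M. In unthinned CPM Klf9 and Klf6 were the members whose genotypes did not overlap, a pattern held by 6.91% of the 7994 genes listed in all libraries, but at matched depth the genotypes overlapped for both. The 4M libraries parted the 5 genes: Klf2, Klf4 and Klf10 were higher in KO 4M than in Apoe 4M, and Klf6 and Klf9 lower. Being lower on ND, 1M and 2M was seen in 30.2% of genes listed in both libraries of those diets. Being lower on these 3 diets and higher on 4M was seen in 10.2% of genes, and lower on all 4 diets in 19.4%. All 5 genes reached their highest level in Apoe 2M, and the same count over all genes was not made. Fos, Egr1, Junb, Klf13 and Klf16, taken up below, were also highest in Apoe 2M, whereas Klf7, Klf15 and Sp3 were not.

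**Figure D1:**
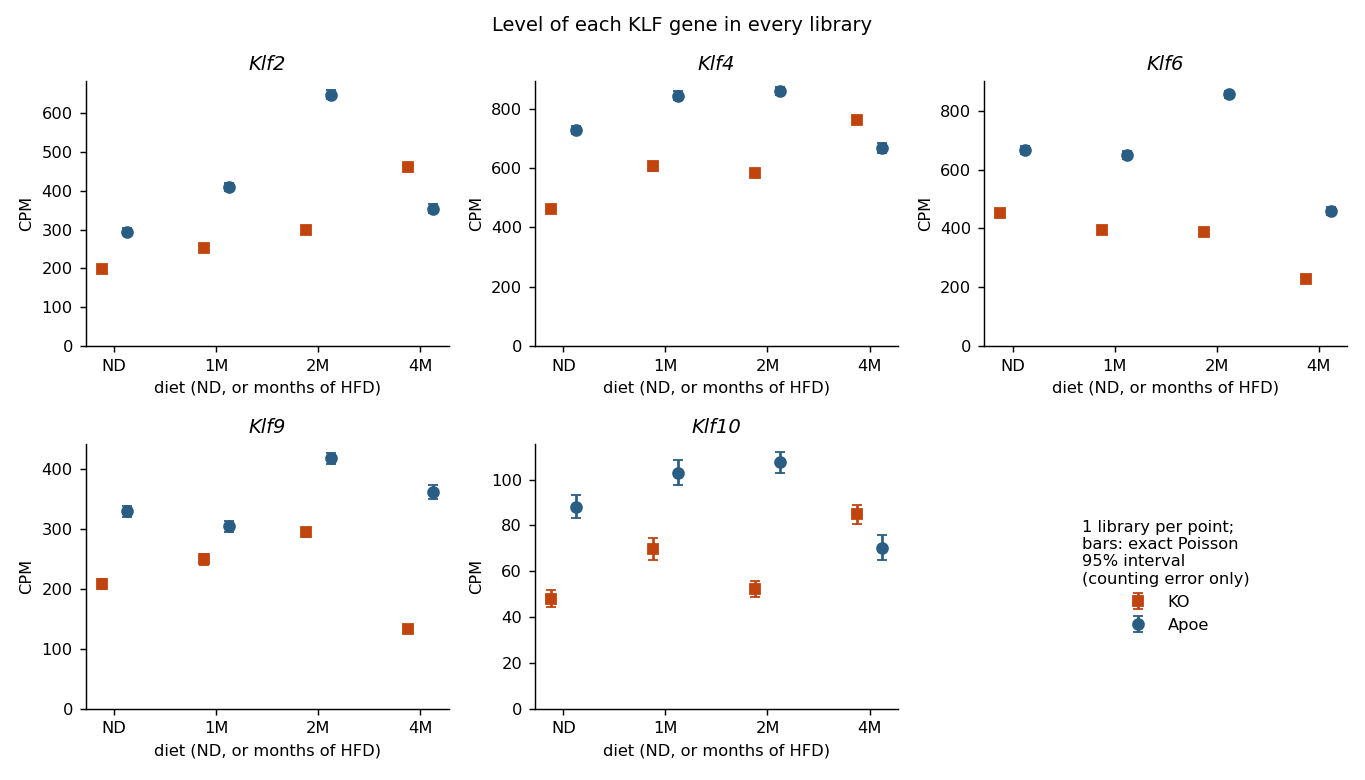
Level of each KLF gene in CPM (y axis, from 0) by diet (x axis), with KO as squares to the left of Apoe as circles; each point is 1 library and bars are exact Poisson 95% intervals. KO lies below Apoe on ND, 1M and 2M for all 5 genes, and at 4M Klf2, Klf4 and Klf10 are higher in KO while Klf6 and Klf9 stay lower.

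The test of genotype over the 4 diets used limma on the mean log2 value per library, with diet as a factor, so its error is the spread of the 4 differences around their mean. The labels do not say that libraries came from separate animals of each group, so the p-values measure only this spread. By this fit 0 of the 5 genes passed an adjusted p of 0.05, where 0.151% of 9253 genes did, and 2 had an unadjusted p under 0.05 (Klf6 and Klf9). The mean log2 value of Klf6 differed by -0.53 ± 0.10 (SE, KO minus Apoe, limma adjusted p = 0.176), lower in 4 of 4 diets, and that of Klf9 by -0.40 ± 0.09 (adjusted p = 0.208), also lower in 4 of 4. Klf2 differed by -0.33 ± 0.20 (limma adjusted p = 0.539), Klf4 by -0.29 ± 0.22 (0.598) and Klf10 by -0.14 ± 0.09 (0.56), each lower in 3 of 4 diets.

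The genotype result for Klf4 and Klf10 differed without the 4M pair. Without both 4M libraries, Klf4 fell by 0.55 ± 0.015 (limma adjusted p = 0.0149) and Klf10 by 0.24 ± 0.02 (0.0412), and both passed the test. The 3 differences of Klf4 were -0.53 on ND, -0.55 on 1M and -0.58 on 2M, almost the same size. Without the 4M pair Klf2 differed by -0.56 (limma adjusted p = 0.0866), Klf6 by -0.59 (0.0855) and Klf9 by -0.30 (0.0638). Those 2 calls of 5 stand beside 2.59% of all genes called in the same fit, and all 5 had an unadjusted p under 0.05. Leaving out either single 4M library gave the same 2 calls, since the other library of that diet then has no partner.

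Within a single diet there is no replicate, and a difference of 1 on the scale log2(CPM + 1) was taken as large. On ND and on 1M 0 of 5 genes were lower by that much, beside 1.37% and 0.77% of all genes. On 2M 3 of 5 were (Klf2, Klf6 and Klf10), beside 2.17% of all genes, and on 4M 1 of 5 was (Klf9), beside 17% of all genes. The median of the 5 differences was -0.66 on ND, -0.55 on 1M, -1.03 on 2M and 0.19 on 4M, where the medians of all genes were -0.05, 0.02, -0.02 and -0.23.

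Matched depth changed the sizes little. The thinned ratio of KO to Apoe for Klf2 was 0.711 on ND, 0.571 on 1M, 0.475 on 2M and 1.21 on 4M (4M interval 1.12 to 1.29). For Klf4 it was 0.641, 0.683, 0.68 and 1.15 (4M interval 1.09 to 1.21). Both genes thus kept the higher KO level on 4M. The thinned ratio of Klf6 ran from 0.46 on 2M to 0.703 on ND, and that of Klf9 from 0.385 on 4M to 0.859 on 1M.

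Shares of cells added how the UMIs were spread. At matched depth the share of cells with a UMI was lower in KO than in Apoe in 19 of 20 pairs of gene and diet, and the exception was Klf4 on 4M. The same count over all genes was not made. Klf10 on 4M was nearly level, at 18.6% in KO and 18.9% in Apoe, within the exact binomial intervals. For Klf4 the share was 61.0%, 65.9%, 64.6% and 69.9% in KO ND, 1M, 2M and 4M, against 75.9%, 80.5%, 80.9% and 67.9% in Apoe ND, 1M, 2M and 4M. For Klf2 it was 38.1%, 39.7%, 44.2% and 48.5% in KO, against 47.1%, 56.3%, 69.2% and 51.0% in Apoe, on the same diets. On 4M fewer KO cells than Apoe cells therefore had a Klf2 UMI, by a margin within the exact binomial intervals (45.9% to 50.95% in KO, 48.2% to 53.8% in Apoe), although the KO mean was higher. The mean number of Klf2 UMIs per thinned cell was 1.26 in KO 4M and 1.05 in Apoe 4M, the highest single cell had 26 and 12, and the variance over the mean was 3.89 and 2.14. That variance over the mean in KO 4M was the highest of the 8 libraries for Klf2, but this was not particular to Klf2. KO 4M was also highest for Klf4 (3.36), Klf9 (1.37), Klf10 (1.595), Fos (8.81) and Junb (8.775), whereas Klf6 (2.27) and Egr1 (4.675) were highest in Apoe 4M. The share of cells with 3 or more Klf2 UMIs was 16.1% in KO 4M and 13.3% in Apoe 4M, and was highest in Apoe 2M, at 26.9%.

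The share for Klf6 was 65.0%, 59.8%, 56.8% and 41.0% in KO ND, 1M, 2M and 4M, against 74.1%, 74.8%, 79.7% and 58.7% in Apoe ND, 1M, 2M and 4M. For Klf9 it was 40.9%, 50.0%, 53.6% and 29.9% in KO, against 54.3%, 56.1%, 64.6% and 59.0% in Apoe, on the same diets. Klf6 and Klf9 thus both had their smallest share in KO 4M. The share for Klf10 was between 12.3% and 18.6% in KO and between 18.9% and 24.9% in Apoe. Without thinning the share was lower in KO in 17 of 20 pairs, and this too was not counted over all genes. No cell type that should lack these genes was in the sort, so the share that free RNA gives was not measured. The mean number of the 5 genes seen in a thinned cell was 2.08 to 2.34 in KO libraries and 2.55 to 3.19 in Apoe libraries. The same count for other sets of 5 genes was not made, so it is not known how usual this is.

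Most immediate early genes were lower in KO, 21 of 23 on ND, 22 on 1M, 22 on 2M and 18 on 4M. The share of all genes lower on a single diet was not counted. On log2(CPM + 1) the median difference of the list was -0.52, -0.35, -0.66 and -0.94 on the 4 diets in that order. The medians of all genes were -0.05, 0.02, -0.02 and -0.23. The 23 immediate early genes summed to 7062 to 13180 CPM in KO libraries and 14860 to 20620 in Apoe libraries. By limma 22 of the 23 were below 0 over the 4 diets (39.2% of all genes were) and 0 passed the adjusted test, with a median difference of -0.26 against 0.01 for all genes. Fos, an AP-1 subunit, had 1822, 2387, 2437 and 610 CPM in KO ND, 1M, 2M and 4M, against 3707, 3878, 4401 and 2912 in Apoe ND, 1M, 2M and 4M. Egr1, a zinc finger factor induced by serum, had 1043, 1160, 821 and 512 in KO, against 1671, 1573, 1699 and 1615 in Apoe, on the same diets. Junb, a partner of Fos, had 455, 733, 892 and 818 in KO, against 832, 923.5, 1406 and 985 in Apoe. On 4M the thinned ratio of KO to Apoe was 0.228 for Fos, 0.33 for Egr1 and 0.881 for Junb, below 1 where those of Klf2 and Klf4 were above it.

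**Figure D2:**
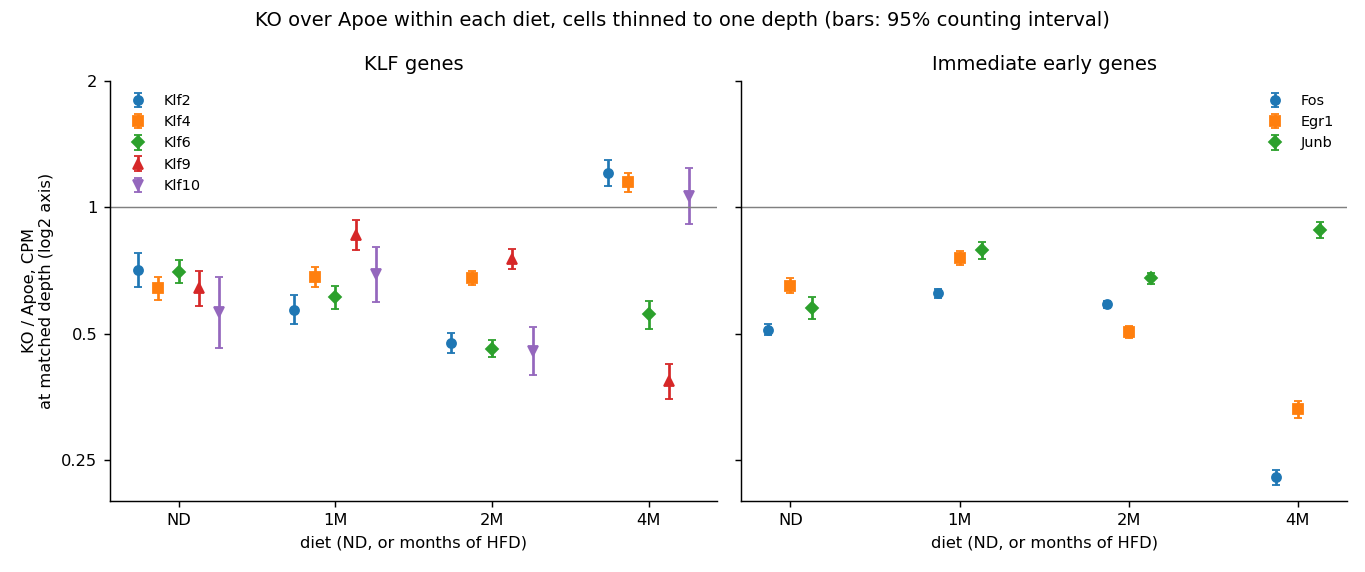
Ratio of KO to Apoe in CPM with cells thinned to one depth (y axis, log2 scale) by diet (x axis), for the 5 KLF genes (left) and for Fos, Egr1 and Junb (right); each point compares 1 KO and 1 Apoe library and bars are 95% counting intervals. All 8 genes lie below 1 on ND, 1M and 2M; on 4M Klf2 (1.21) and Klf4 (1.15) lie above 1 while Fos (0.228) and Egr1 (0.33) lie at their lowest.

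To compare cells of like immediate early content, the cells of all libraries were put in 3 ranges of their thinned immediate early UMIs (cut so that each range holds as many of all cells, at 28.7 and 52 UMIs, with 7.18% of cells within 1 UMI of a cut). The high range held 6.66% to 23.5% of the cells of KO libraries and 34.1% to 56.1% of those of Apoe libraries. All 5 genes were higher in the high than in the low range in all 8 libraries, a count that was not made over all genes. In KO 4M Klf2 was 314, 769.9 and 819.6 CPM of thinned cells in the low, middle and high range, and in Apoe 2M it was 199, 432 and 866. Klf4 was 737, 763 and 1144 CPM in KO 4M, and 539.6, 872 and 942 in Apoe 2M, over the same ranges.

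Within a range the ND difference of Klf2 was smaller than in whole libraries: the ratio of KO to Apoe was 1.19, 1.02 and 1.04 in the low, middle and high range, each with an interval that holds 1, against 0.711 for all cells. On 1M the Klf2 ratio was 0.697 to 0.776 over the 3 ranges and on 2M 0.64 to 0.805, below 1 in every range. On 4M it was 1.64, 2.67 and 1.37, above 1 in every range and farther from 1 than the 1.21 of all cells. These ranges do not match cells fully. On 4M the median immediate early UMIs were 13 in KO and 17 in Apoe in the low range, and 67 and 72 in the high range. Klf4 was below 1 in all ranges on ND (0.754 to 0.852) and 1M (0.745 to 0.806). On 2M it was 0.602, 0.69 and 1.07 from low to high, and on 4M 1.61, 1.17 and 1.27. Klf6 was below 1 in 11 of 12 ranges and diets, with 1.14 in the low range on ND (interval 0.974 to 1.33) as the exception. Klf9 on 4M was 0.492, 0.462 and 0.486, close to each other in all 3 ranges, while on 1M and 2M its high range was near 1 (1.05 and 0.982). The part of digestion in these differences was not tested.

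**Figure D3:**
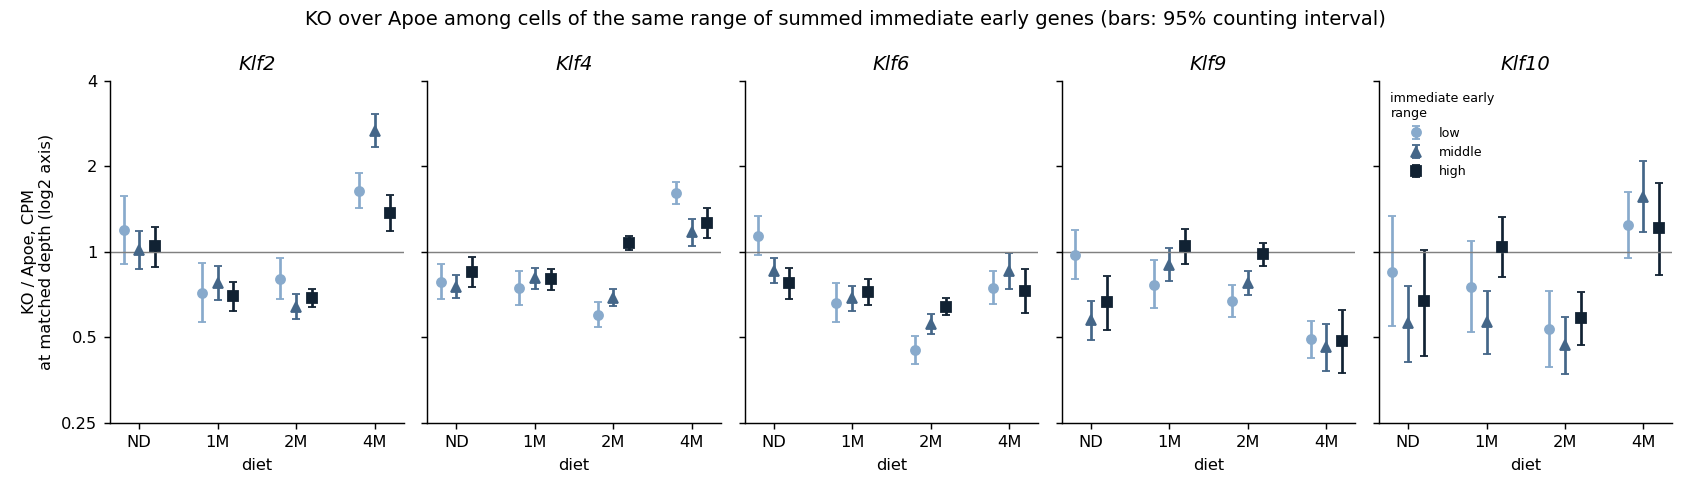
Ratio of KO to Apoe in CPM of thinned cells (y axis, log2 scale) by diet (x axis) for each KLF gene, within the low, middle and high range of summed immediate early UMIs of a cell; bars are 95% counting intervals. Klf2 lies near 1 in all 3 ranges on ND and between 1.37 and 2.67 on 4M, and Klf9 lies between 0.462 and 0.492 on 4M.

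Contractile genes gave the second axis. Cells were put in 3 ranges of the thinned UMIs of 17 contractile genes (such as Acta2, Myh11 and Tagln), cut in the same way at 99 and 147 UMIs, with 3.74% of cells within 1 UMI of a cut. The low range held 10.2%, 14.6%, 22.5% and 96.4% of cells in KO ND, 1M, 2M and 4M, and 23.3%, 19.1%, 30.4% and 49.7% in Apoe ND, 1M, 2M and 4M. Klf4 was higher in low than in high contractile cells in all 8 libraries, with every interval above 1. In KO ND, 1M, 2M and 4M it was 614, 1024, 993 and 790.2 CPM of thinned cells in the low range and 387, 421, 379 and 184 in the high range. In Apoe ND, 1M, 2M and 4M it was 1126, 1151, 1070 and 902 in the low range and 451, 593, 563 and 299 in the high range. The ratio of low to high ran from 1.58 in KO ND to 4.28 in KO 4M, whose high range held 28 cells.

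The other genes followed less evenly. Klf6 was higher in the low range in 7 libraries, by up to 2.41 times in Apoe 2M, and the exception was KO 4M (0.799, interval 0.538 to 1.24). Klf9 was higher in the same 7 libraries, by up to 2.23 times in Apoe ND, and was 0.869 in KO 4M (0.504 to 1.64). Klf2 was higher in the low range in 8 libraries, with an interval above 1 in 6, and its ratio ran from 1.05 in Apoe 1M to 4.04 in KO 4M. Klf10 ran from 1.1 to 1.81 and had an interval above 1 in 6 libraries. Low and high contractile cells also differed in immediate early UMIs. The low cells had the higher median in 4 libraries (17 against 13.5 in KO 4M and 41 against 25 in Apoe 4M, and also KO 2M and Apoe ND) and the lower one in the other 4 (23 against 31 in KO ND, 51 against 57 in Apoe 2M, and also KO 1M and Apoe 1M). In KO 4M they differed in depth as well (medians of 11282 and 7204 UMIs before thinning). Klf4 was therefore compared again among cells of the same immediate early range, a split added after the values were seen. In 21 of 21 combinations of library and immediate early range with at least 20 cells on each side, Klf4 was higher in low than in high contractile cells, by 1.62 to 5.23 times with a median of 2.36. Klf6 was higher in 20 of 21, Klf9 in 20, Klf10 in 19 and Klf2 in 18. Neither these counts nor those over the 8 libraries were made for all genes, so it is not known how usual they are.

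**Figure D4:**
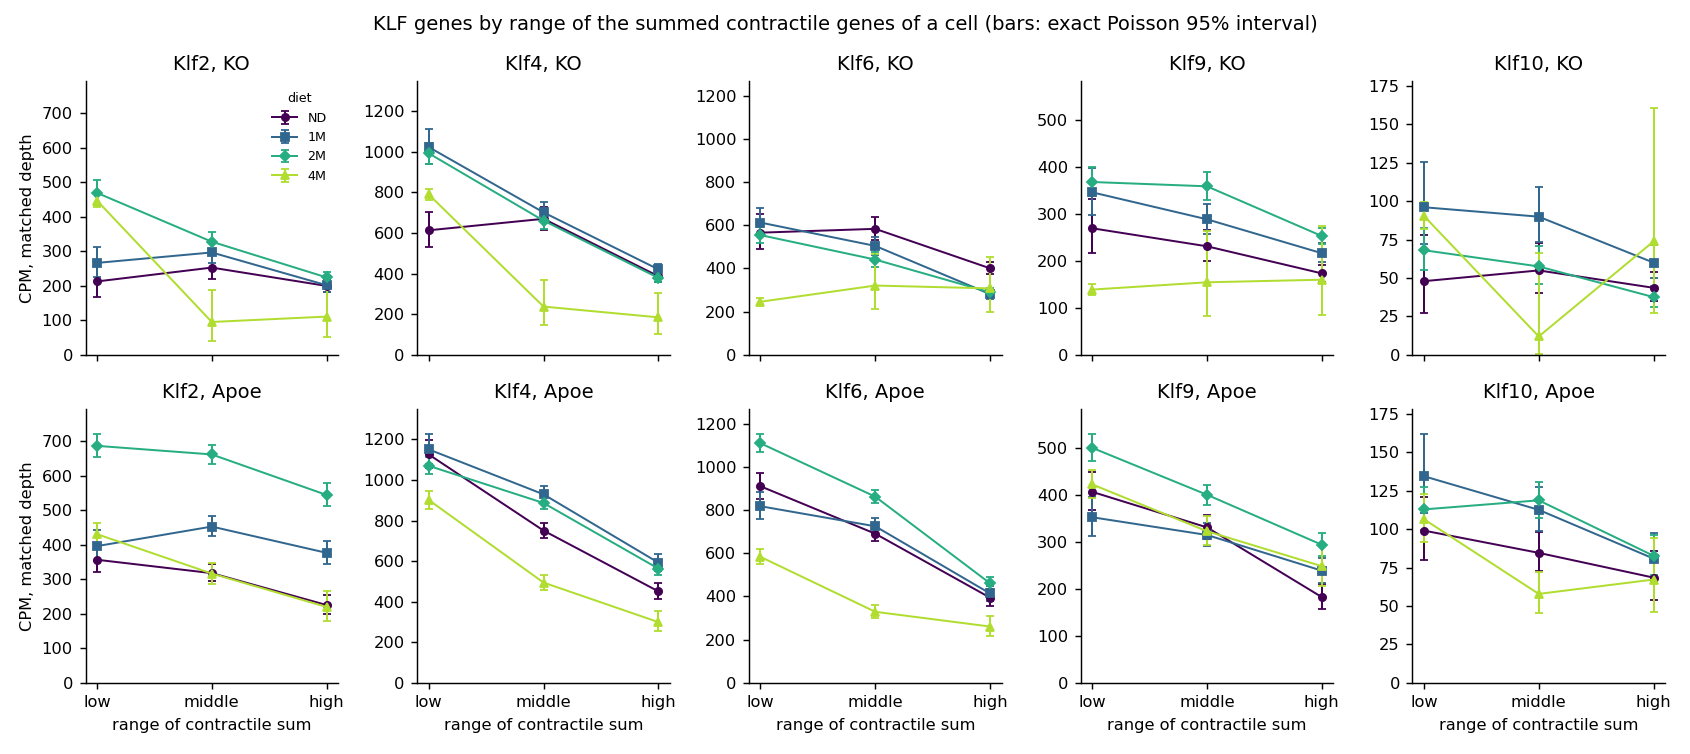
Level of each KLF gene in CPM of thinned cells (y axis, from 0) in cells of the low, middle and high range of summed contractile UMIs (x axis), for KO (upper row) and Apoe (lower row); each line is 1 library, coloured by diet, and bars are exact Poisson 95% intervals. Klf4 is higher in the low than in the high range in all 8 libraries, whereas Klf6 and Klf9 in KO 4M are not.

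The 4M difference of Klf4 took another sign within contractile ranges. In the whole libraries the thinned ratio of KO to Apoe was 1.15, but among low contractile cells it was 0.876 (interval 0.826 to 0.93), with 1520 KO cells and 614 Apoe cells. Among middle cells it was 0.48 (0.291 to 0.748) and among high cells 0.616 (0.336 to 1.05), where KO 4M had 29 and 28 cells. The range does not match cells fully, because low cells had a median of 2 contractile UMIs in KO 4M and 49 in Apoe 4M. Klf2 was 1.04 among low cells (0.953 to 1.13), and Klf10 was 0.848 (0.712 to 1.01). Klf6 and Klf9 stayed lower in low KO cells, at 0.421 (0.386 to 0.458) and 0.328 (0.295 to 0.366). The part that the share of cells in the low range (96.4% in KO 4M, 49.7% in Apoe 4M) has in the whole-library level of Klf4 was not tested.

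Cartilage and bone genes were used in the same way on 4M, in ranges set by hand after the values were seen (up to 2, 3 to 49 and over 49 thinned UMIs, with 20.9% of all cells within 1 UMI of a cut). The high range held 1268 cells of KO 4M and 74 of Apoe 4M, and no KO 4M cell was in the low range, so a level of free cartilage RNA in every KO 4M droplet cannot be told apart from expression. In that high range Klf4 was 782 in KO and 1051 in Apoe (ratio 0.744, interval 0.65 to 0.856), while Klf2 was 466 in KO and 298 in Apoe (1.57, 1.22 to 2.04). Klf6 had a ratio of 0.55 and Klf9 of 0.44, and Klf10 of 0.731 with an interval that holds 1. In the middle range, with 309 KO cells and 231 Apoe cells, all 5 genes were lower in KO, and the ratio was 0.785 (0.66 to 0.934) for Klf2 and 0.765 (0.685 to 0.856) for Klf4. The order of the genotypes for Klf2 thus differed between the 2 ranges, a difference that was not tested.

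In thinned cells the 5 transcripts were only weakly correlated with each other. The median of Pearson's r over the 8 libraries ran from 0.0378 for Klf2 and Klf10 to 0.205 for Klf4 and Klf6. With few UMIs of each gene per thinned cell, counting error alone keeps such values low. How closely the genes go together in a cell was therefore not measured. In KO 4M a Klf6 UMI was found in 44.3% of thinned cells with Klf4 and in 33.1% of those without, and in Apoe 4M in 64.8% and 45.8%. A Klf4 UMI was found in 70.9% of KO 4M cells with Klf2 and 69.0% of those without, and in Apoe 4M in 74.0% and 61.5%. The gap between cells with and without Klf2 was thus smaller in KO 4M than in Apoe 4M, a difference that was not tested.

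Slopes per month of diet were fitted with limma on the time-course tables. Over both genotypes 0 of 5 genes passed an adjusted p of 0.05 (5.55% of all genes did), and 1 had an unadjusted p under 0.05. That was Klf6, with -0.15 ± 0.04 per month on the log2 scale (limma adjusted p = 0.0626). It passed with values from the diet tables (-0.18, limma adjusted p = 0.0213), where 14.5% of all genes passed. Without Apoe 4M, Klf2 passed in its place, with 0.19 per month (limma adjusted p = 0.0371), beside 11.3% of all genes. The other common slopes lay between -0.04 for Klf9 and 0.07 for Klf2.

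Within KO 0 of 5 slopes passed, where 22.5% of all genes did, and 2 had an unadjusted p under 0.05 by limma. Klf2 had a slope of 0.16 ± 0.08 (limma adjusted p = 0.203), Klf4 of 0.15 ± 0.06 (0.104), Klf6 of -0.15 ± 0.06 (0.1001), Klf9 of -0.09 ± 0.05 (0.194) and Klf10 of 0.05 ± 0.03 (0.234). Klf2 and Klf6 passed when Apoe 4M, which shares in the estimate of spread, was left out (7.76% of all genes passed), and Klf6 when Apoe 2M was (9.75%). Within Apoe 0 of 5 passed, as did 0% of all genes (limma; 1 of the 5 had an unadjusted p under 0.05), with slopes from -0.16 for Klf6 to 0.0040 for Klf9.

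The slope of KO minus that of Apoe passed for 0 of 5 genes and for 0% of all genes by limma, and 2 of the 5 had an unadjusted p under 0.05. It was largest for Klf4, at 0.26 ± 0.08 per month (limma adjusted p = 0.226), and 0.10 ± 0.04 for Klf10 (0.236). Without both 4M libraries that difference was -0.04 for Klf4 and -0.03 for Klf10, so it rested on the 4M pair. Months 0 to 2 gave Klf2 a slope of 0.08 per month in KO and 0.33 in Apoe, and a difference of -0.25.

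Of the 21 other KLF and SP genes looked for, 13 were listed in some library and 11 entered the fits. By limma 0 of 11 passed the genotype test, and 10 were below 0. On the scale log2(CPM + 1) their median difference was -0.30 on ND, -0.10 on 1M, -0.23 on 2M and, over the 8 listed in both 4M libraries, -0.59 on 4M. The 8 listed in all libraries were Klf3, Klf7, Klf13, Klf15, Klf16, Sp1, Sp2 and Sp3. The ratio of KO to Apoe for Klf13 was 0.962, 1.06 and 0.923 on ND, 1M and 2M and 0.707 on 4M. Klf15, known as a partner of glucocorticoid receptors, had 22.2, 29.6, 41.6 and 17.6 CPM in KO ND, 1M, 2M and 4M, against 31.1, 31.2, 26.5 and 42.0 in Apoe ND, 1M, 2M and 4M, and so was higher in KO on 2M alone. The ratio of KO to Apoe over the 4 diets ran from 0.566 to 0.816 for Klf7, 0.756 to 1.05 for Klf3 and 0.603 to 0.786 for Klf16. It ran from 0.606 to 0.923 for Sp1, 0.764 to 1.32 for Sp2 and 0.617 to 1.11 for Sp3. Klf7, Klf16 and Sp1 were lower in KO on all 4 diets in these levels. In the slope fit common to both genotypes Klf11 (-0.04 per month, limma adjusted p = 0.0469) and Sp3 (-0.03, 0.0363) were called lower. In Apoe alone Sp3 showed no steady fall, at 57.25, 53.1, 57.9 and 49.3 CPM on ND, 1M, 2M and 4M. Klf11 stood at 29.9, 29.0, 29.4 and 17.9 CPM in Apoe on the same diets. The common fit called 514 of all genes, 500 of them lower, but 3 with thinned cells, 1 on log2(CPM + 1) and 0 with the rank of time. Within KO Klf11, Klf13 and Sp3 were called lower. In these fits 5.55% and 22.5% of all genes passed, in either direction, and within Apoe no gene did. Klf11 was listed at 0 in KO 4M. That 0 can stand for a low level that was not listed. It entered both fits as a value, which can make the slopes of Klf11 steeper by an amount that was not measured. Sp7, which directs osteoblasts, and Sp8 were listed in KO 4M alone, at 46.9 and 31.3 CPM, and were picked out after their values were seen.

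The genes around the 5 factors were counted in lists. Of 18 TGF-beta-responsive genes 2 passed the genotype test by limma, among them Pmepa1, an inhibitor of TGF-beta signalling, which differed by -1.74 ± 0.08 (SE, KO minus Apoe, limma adjusted p = 0.0209). The list had 14 of 18 below 0 and a median of -0.16. Klf10, the TGF-beta early gene among the 5, was not called in that fit. Of 12 genes upstream of KLF2 and KLF4, such as Mapk7 (ERK5) and Mef2a, 0 passed (9 below 0, median -0.01), and their sum was 708 to 829 CPM in KO libraries and 806 to 843 in Apoe libraries. Of 9 glucocorticoid-responsive genes 0 passed for genotype, and within KO 3 rose over time and 1 fell. Tsc22d3, which encodes GILZ, rose by 0.40 per month (limma adjusted p = 0.0364), and Klf9 was not called in that fit. Of 6 genes counted as partners of KLF4, such as Elk1 and Pdgfrb, 0 passed for genotype. Of the 17 contractile genes 16 fell over time within KO by limma, and of 15 cartilage and bone genes 15 rose. In that fit 22.5% of all genes and none of the 5 factors passed. Only 3 cartilage and bone genes were listed in both libraries on ND and 1 on 1M, against 12 on 4M. Unlisted genes entered as 0, so a rise was largely set in advance for this list.

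Across the 8 libraries the genes whose levels were most like each factor were found by Pearson's r of log2(CPM + 1) among 7989 candidates, the 5 factors themselves left out. This describes 8 points that share depth and the 4M libraries, and no test was made. Klf2 was most like Ddit3 (r = 0.969), Dnajc3 (0.959) and Twistnb (0.946). Ddit3, the stress factor CHOP, had 50.98, 64.3, 71.5 and 124 CPM in KO ND, 1M, 2M and 4M, against 71.2, 91.3, 125 and 86.3 in Apoe ND, 1M, 2M and 4M, and so shared both peaks of Klf2, Apoe 2M and KO 4M. Klf4 was most like Pibf1 (0.956), Lysmd3 (0.954) and Txndc5 (0.948). Klf6 was most like Tnpo1 (0.99), Josd2 (0.987) and Ncoa6 (0.982), and Klf9 was close to Fam76a (0.986) and Chd4 (0.985). Klf10 was most like Uspl1 (0.9698), Spty2d1 (0.967) and Lemd3 (0.966). Among the 5 themselves Klf4 and Klf10 were the nearest pair (0.961), followed by Klf2 and Klf4 (0.881) and Klf6 and Klf9 (0.85), while Klf2 and Klf9 were far apart (0.24).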

How the data were processed

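Counting used UMI-tools, STAR and featureCounts (Subread 1.6.0) on GRCm38, as far as the submitters' processing notes show. No source used here gives the strand setting. The authors deposited log2 values, which they had scaled for each cell with trimmed-mean factors per the file names, and each library is in 2 tables. Undoing the log gave whole multiples of the smallest value of each cell (tolerance 0.01), taken as UMIs. Genes in under 5% of a library's cells are listed at 0. No cell was removed and no doublet caller was run.

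The mean log2 value of each library was tested with limma 3.58.1 (R 4.3.3). It covered 9253 genes with a UMI in 5% of cells or more, averaged over libraries, and p-values were adjusted over all of them (Benjamini-Hochberg, threshold 0.05). The diet tables gave the genotype effect and the time-course tables the slopes. These effects are differences of means over cells, zeros included, and not folds, and are small for genes of low level. CPM weights deep cells more, while thinned cells count equally. Ratios carry exact binomial and shares Clopper-Pearson 95% intervals, for counting error only.

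The members and gene lists were chosen with earlier results of these data known. Beyond the 5 genes, the rule named other family members listed in all 8 libraries, Fos, Egr1, Junb, list members past the test and the 3 genes most like each factor. A few genes that this rule names are not reported here. Alternatives were thinned cells, log2(CPM + 1) per library, the other table, no filter, cells without markers of other types, and fewer libraries. The fits were tested on simulated data.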

Additional observations from a re-analysis of the deposited data

Results flagged for a closer look

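For Klf2, Klf4 and Klf10 the KO and Apoe libraries stood in opposite order on 4M and on the 3 other diets. KO minus Apoe on the scale log2(CPM + 1) was 0.38 for Klf2, 0.19 for Klf4 and 0.27 for Klf10 on 4M, and below 0 on ND, 1M and 2M for all 3. With 1 library per genotype and diet this difference between diets was not tested. Being so placed was seen in 10.2% of the 7994 genes listed in all libraries. At matched depth the Klf10 ratio on 4M was 1.06 (0.914 to 1.24). The KO 4M library also had the fewest contractile and the most cartilage UMIs, and their part in the result was not tested.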

How the results depend on the processing

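The signs of the genotype effect of all 5 genes were the same under the 14 alternatives run for each. Not all of these are separate checks. Leaving out either library of a diet gives the same estimate, and the fit without a filter keeps the main estimate. The number of genes called by limma was 2 of 5 without both 4M libraries, and from 0 to 2 in the fits that leave out 1 library. In those fits it was 0 to 1 for the common slope and 0 to 2 for the slope within KO. With the other kind of table the common slope of Klf6 was called, which makes 1 of 5, beside 14.5% of all genes. The single-diet differences of at least 1 (4 of 20) were as many with 0.1 added in place of 1 and at matched depth. No paired analysis was possible because each genotype and diet has 1 library and the labels give no replicate numbers; diet is already a factor of the genotype fit.

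No slope that changed sign was called under the main settings, and the cause of the changes was not tested. Without both 4M libraries the common slope was 0.0716 for Klf9, and the slope within KO -0.000245 for Klf4, 0.0904 for Klf9 and -0.0205 for Klf10. The slope within Apoe was then 0.33 for Klf2, 0.0391 for Klf4, 0.0692 for Klf6 and 0.0112 for Klf10, and the difference of slopes -0.252 for Klf2, -0.0393 for Klf4, -0.267 for Klf6, 0.0377 for Klf9 and -0.0317 for Klf10. The common slope of Klf10 was 0.00966 with thinned cells and 0.0358 on log2(CPM + 1). The slope of Klf2 within Apoe was 0.0331 and 0.0596 in these settings, and the difference of slopes of Klf6 -0.041 and -0.115. With the other table the common slope of Klf4 was -0.0112 and the slope of Klf9 within Apoe -0.0186.

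Leaving out 1 library at a time gave common slopes from -0.0935 to 0.129 for Klf4, -0.0636 to 0.0200 for Klf9 and -0.0458 to 0.0422 for Klf10, and differences of slopes from -0.172 to 0.306 for Klf2, -0.222 to 0.0773 for Klf6 and -0.164 to 0.0864 for Klf9. Slopes ran from -0.000245 to 0.183 for Klf4, -0.16 to 0.0904 for Klf9 and -0.0205 to 0.058 for Klf10 within KO, and from -0.148 to 0.33 for Klf2, -0.200 to 0.0391 for Klf4, -0.23 to 0.0692 for Klf6, -0.00502 to 0.0527 for Klf9 and -0.0871 to 0.0112 for Klf10 within Apoe. Klf10, at most 108 CPM, is limited most by depth.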
